A study of Mus musculus with 4 samples.

Results

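Alternative promoters of genes with 3 or more separate coding start regions were examined for acetylation of histone H3 at lysine 27 (H3K27ac) in mouse hippocampus. The transcription start sites (TSSs) of the coding transcripts of each autosomal protein-coding gene in the GENCODE M21 annotation (build mm10, GRCm38) were merged when 2 kb or less apart, and each cluster was widened by 1 kb on both sides. This gave 29523 clusters at 20722 genes, of which 1612 genes had 3 or more clusters, with 5797 clusters between them. A further 4616 genes had 2 clusters and 14494 had 1. Most of the 1612 genes, 1056, had 3 clusters, 333 had 4 and 126 had 5, and the titin gene Ttn had the most with 12. A cluster was called marked when at least 1 bp of its region lay in a peak. The cluster at the 5' end of the gene is called the first, and all others are called internal.

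The data were H3K27ac ChIP-seq peak lists from hippocampal layers of adult male B6CASTF1/J mice, which are F1 hybrids, aged 2 months. Pool C was biological replicate 1 and pool D biological replicate 2. Each pool joined tissue of 7 biosamples and had 2 technical replicates, with a fragment size of 200 to 600 bp, which makes 4 samples. The samples formed 1 group with no treated or mutant arm, so single animals cannot be resolved, and the spread between the pools is the only replicate error. The 4 deposited lists were the replicated list of 88930 peaks, used here unless another is named, a list of 102643 peaks from both pools together, and lists of 94836 peaks for pool C and 63623 for pool D. Read totals are unknown, so a region without a peak is one in which none was detected at this depth, and the shorter pool D list may differ from pool C through depth, which was not tested. At the marker genes checked, peaks lay at the TSSs of 10 of 10 genes of hippocampal excitatory neurons, 5 of 5 of astrocytes, 5 of 5 of oligodendrocytes, 5 of 5 of endothelium and 3 of 5 of microglia (not C1qa or Tmem119). None of 5 cerebellar and hindbrain genes had one. The tissue is thus a mixture of cell types, and a peak does not tell which of them carries the mark, nor which parental allele.

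Many genes can begin transcription at more than one promoter. The choice of promoter sets the first exon, and with it the 5' untranslated region, the N-terminus of the protein or the tissue and stimulus to which the transcript responds. H3K27ac is laid down by the acetyltransferases p300 and CBP at active promoters and enhancers, so that a peak at an internal start can belong to a promoter in use or to an enhancer inside the gene body. In neurons, genes of synaptic adhesion and signalling are known for long and short protein forms made from distant promoters.

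Promoter sequences of 2 genes show the kinds of start compared here, an unmarked and a marked cluster of each gene. Each sequence is from the GRCm38 reference, read 5' to 3' in the direction of transcription, and covers 250 bp before and 50 bp from the main TSS of the cluster, with every CG dinucleotide in capitals. Nrxn3, for a presynaptic adhesion molecule of the neurexin family, is shown at the first cluster from the 5' end and at the second. Gnas, which encodes the stimulatory G protein alpha subunit and further products of an imprinted locus, is shown at the first and the fourth cluster.
Nrxn3 cluster 1, not marked, chr12:88794254-88794553, plus strand: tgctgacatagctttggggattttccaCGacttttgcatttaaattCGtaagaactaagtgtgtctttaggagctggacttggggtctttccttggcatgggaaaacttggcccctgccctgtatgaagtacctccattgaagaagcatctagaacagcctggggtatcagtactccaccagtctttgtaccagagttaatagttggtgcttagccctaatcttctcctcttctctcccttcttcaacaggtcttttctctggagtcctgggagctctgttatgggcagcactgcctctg
Nrxn3 cluster 2, marked, chr12:88953149-88953448, plus strand: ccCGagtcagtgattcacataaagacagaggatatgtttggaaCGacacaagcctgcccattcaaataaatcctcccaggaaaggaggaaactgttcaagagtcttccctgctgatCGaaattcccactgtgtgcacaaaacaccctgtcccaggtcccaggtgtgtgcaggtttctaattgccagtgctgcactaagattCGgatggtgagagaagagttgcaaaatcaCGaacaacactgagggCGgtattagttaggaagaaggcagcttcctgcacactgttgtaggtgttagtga
Gnas cluster 1, not marked, chr2:174284070-174284369, plus strand: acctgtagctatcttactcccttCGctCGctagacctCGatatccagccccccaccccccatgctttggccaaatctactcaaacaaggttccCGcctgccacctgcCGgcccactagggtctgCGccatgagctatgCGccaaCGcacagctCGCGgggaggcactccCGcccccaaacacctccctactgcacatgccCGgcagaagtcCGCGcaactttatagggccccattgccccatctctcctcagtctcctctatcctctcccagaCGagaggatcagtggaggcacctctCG
Gnas cluster 4, marked, chr2:174329756-174330055, plus strand: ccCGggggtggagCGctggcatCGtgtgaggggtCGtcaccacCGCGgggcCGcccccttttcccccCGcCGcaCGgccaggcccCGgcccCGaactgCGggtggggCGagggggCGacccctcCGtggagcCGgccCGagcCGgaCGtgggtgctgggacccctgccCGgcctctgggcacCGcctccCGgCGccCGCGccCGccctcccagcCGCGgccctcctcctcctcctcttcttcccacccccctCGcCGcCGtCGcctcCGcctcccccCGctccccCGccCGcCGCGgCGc
The Nrxn3 windows held 2 CG in the unmarked and 6 in the marked one, and those of Gnas 16 and 40. In both pairs the marked window was the richer in CG, but the unmarked Gnas start held more CG than the marked start of Nrxn3. For Nrxn3 the order depended on the window. In the 1 kb around the main TSS, the ratio of observed to expected CG was 0.26 at the unmarked and 0.19 at the marked start.

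Fewer than 1 in 2 of the clusters were marked, and the first cluster was marked far more often than the others. Of the 5797 clusters, 2690 (46.4%) were marked in the replicated list, with 47.6% in pool C and 39.2% in pool D. Over the clusters of all autosomal coding genes the same measure gave 50.8%, 51.5% and 46.1%, so that genes with many starts had a slightly lower share per start. The first cluster was marked at 1162 of 1612 genes (72.1%; pool C 72.6%, pool D 67.4%), where the share over first clusters of all genes was 59.7%. Internal clusters were marked at 1528 of 4185 (36.5%; pool C 38.0%, pool D 28.3%), where the share over internal clusters of all genes was 29.9%. Each background includes the clusters described here. First and internal clusters differed by 35.6 percentage points in the replicated list, more than the SD between the pools, which was 3.68 points for first and 6.84 points for internal clusters. These are descriptions with no test, since clusters of 1 gene share a locus and the pools are only 2.

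The share fell from the first to the third start. It was 41.1% at the second cluster, 31.5% at the third, 36.7% at the fourth and 37.2% at the fifth, over 223 clusters, then 47.4% at the sixth, over 97, and 34.0% at the seventh, over 53. Ranks beyond the third come only from genes with more clusters, whose internal shares also differed, from 32.8% in genes with 3 clusters to 51.4% in genes with 7 and 29.9% in genes with 8, so these ranks do not compare the same genes. The most downstream cluster of each gene was marked in 29.6% (pool C 30.8%, pool D 21.3%) and the clusters between the first and the last in 40.8% (pool C 42.5%, pool D 32.8%). To measure the mark in the gene body in the same way, 3152 windows of 2 kb were placed midway between neighbouring clusters at least 6 kb apart. Of these 20.5% were overlapped by a peak (pool C 21.5%, pool D 12.2%), below the share of internal clusters in each list, whose regions are at least as wide. Genes with fewer starts showed the same order: in genes with 2 clusters the first was marked in 56.5% and the second in 23.9%, and the only cluster of the 14494 others was marked in 59.4%.

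**Figure D1:**
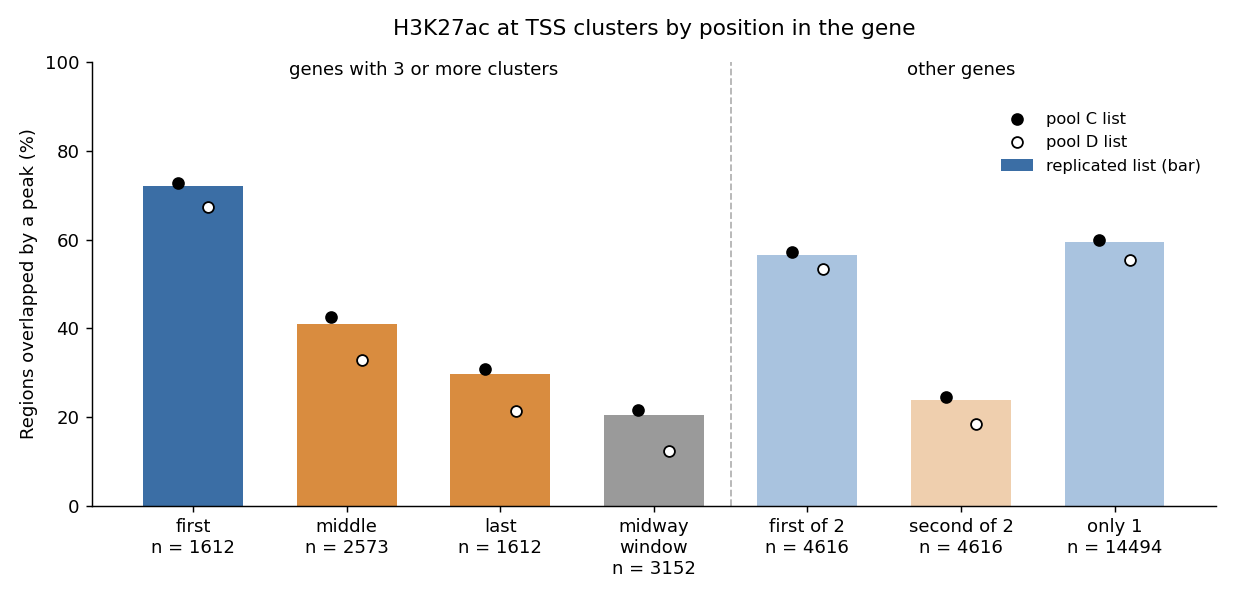
Share of regions overlapped by an H3K27ac peak (y axis, percent) by the position of the TSS cluster in its gene (x axis), with bars for the replicated list and points for the pool C and pool D lists. First clusters of genes with 3 or more clusters reach 72.1%, the last clusters 29.6% and windows midway between clusters 20.5%, and pool D lies below pool C at every position.

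The typical gene with 3 or more starts carried the mark at 1 of them, and nearly 1 in 2 carried it at several. No cluster was marked in 227 genes, 1 in 609, 2 in 418, 3 in 250, 4 in 65, and 5 or more in 43. The mean was 1.67 marked clusters per gene and the median 1. At least 2 clusters were marked in 776 genes (48.1%, 95% Wilson interval 45.7 to 50.6% for the counting of genes only), in 793 genes by pool C and in 609 by pool D. All clusters were marked in 180 genes (11.2%), beside 12.5% of genes by pool C and 6.14% by pool D. By class, 693 genes (43.0%) were marked at the first and at least 1 internal cluster, 469 (29.1%) at the first only, 223 (13.8%) at internal clusters only and 227 (14.1%) at none. Genes with the same class in the replicated list and in both pool lists numbered 524 marked at both, 412 at the first only, 198 at internal only and 208 at none.

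**Figure D2:**
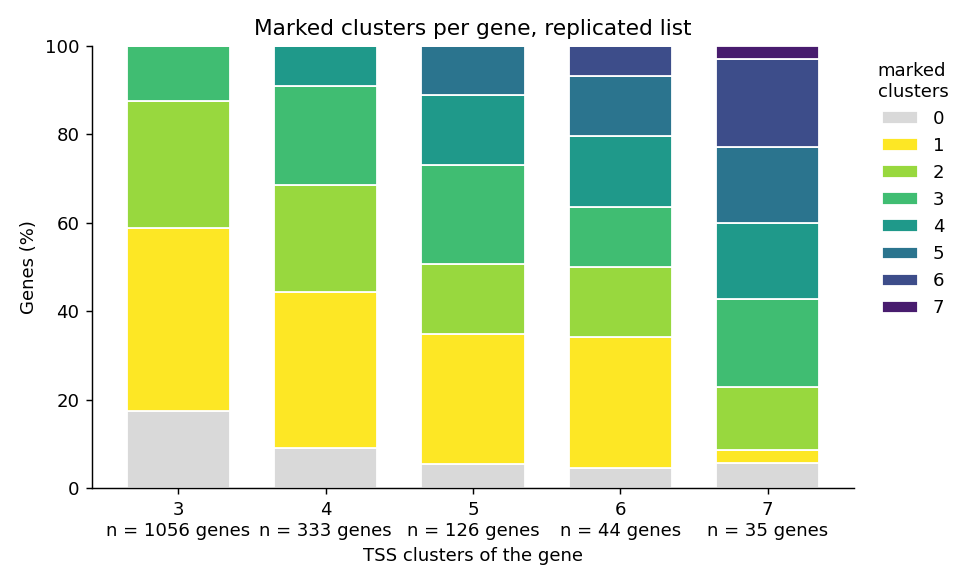
Share of genes (y axis, percent) by the number of marked TSS clusters (colour) for genes with 3 to 7 clusters (x axis), replicated list. Of the 1056 genes with 3 clusters, 438 have 1 marked and 132 have all 3 marked, while 1 of the 35 genes with 7 clusters has all 7 marked.

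Separate starts mostly had separate peaks, in part through the rule itself. Clusters lie more than 2 kb apart by that rule. The strongest peak per marked cluster had a median width of 1906 bp at first and 2085 bp at internal clusters. Of the 2690 marked clusters, 2543 were overlapped by a peak that touched no other cluster of the gene, and 147 (5.46%) shared all their peaks with another cluster. Of the 776 genes with at least 2 marked clusters, 726 still had 2 or more when only unshared peaks were counted. The summit of a peak lay inside the region at 96.2% of marked first clusters and 83.2% of marked internal clusters. Peaks at first clusters were also stronger: the median of the highest signal per cluster, the authors' own value on a scale the sources used here do not state, was 14.7 at first and 7.76 at internal clusters in the replicated list, 16.9 and 8.51 in pool C, and 10.9 and 6.92 in pool D. Within the 693 genes marked at both, the first cluster had the highest signal in 418 (60.3%), an internal cluster in 228 (32.9%), and 47 had the same peak over both.

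Internal marks were less often found in both pools than first marks. Of the first clusters marked in the pool C list, 92.8% were also marked in pool D, and of the internal ones 74.0%. Pool C alone marked 84 first and 413 internal clusters, while pool D alone marked 0 first and 8 internal. The replicated list marked 10 first and 66 internal clusters that were in neither pool list.

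Position moved with the CpG content of the promoter, the feature that separates broadly used promoters from most regulated ones. Clusters were called CpG-rich at an observed over expected CpG of 0.6 or more in the 1 kb around the main TSS. Of the first clusters 928 (57.6%) were CpG-rich, and of the internal clusters 378 (9.03%). Within the CpG-rich class the shares lay close together: 93.5% of first clusters (pool C 94.2%, pool D 90.9%) and 90.5% of internal clusters (pool C 91.0%, pool D 86.0%) were marked. The median signal of these was 15.9 at first and 13.9 at internal clusters. Within the CpG-poor class, 43.0% of first clusters (pool C 43.4%, pool D 35.5%) and 31.2% of internal clusters (pool C 32.8%, pool D 22.6%) were marked. The difference of first from internal clusters was therefore much smaller within each class than over all clusters.

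Many internal starts of the annotation are not mapped to a complete 5' end, and these were marked least. In 1521 internal clusters (36.3%), against 6 first clusters, every transcript was flagged by GENCODE as incomplete at its start, so that the true start may lie elsewhere. Of these internal clusters 16.6% were marked (pool C 18.1%, pool D 9.80%), a share below that of the midway windows. Internal clusters with at least 1 complete start were marked in 47.9% (pool C 49.4%, pool D 38.9%). Among CpG-poor internal clusters with a complete start the share was 40.9% (pool C 42.6%, pool D 31.2%). Among CpG-poor first clusters with a complete start it was 43.3% (pool C 43.7%, pool D 35.8%), somewhat higher in each of these lists. Transcript support moved with the mark as well. Internal clusters with 1 transcript were marked in 29.2%, with 2 in 49.0%, with 3 to 4 in 63.4% and with 5 or more in 74.0%, and first clusters in 56.5%, 77.9%, 85.3% and 89.7%. CpG class, complete starts and transcript number move together in this annotation, and their separate parts were not tested.

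**Figure D3:**
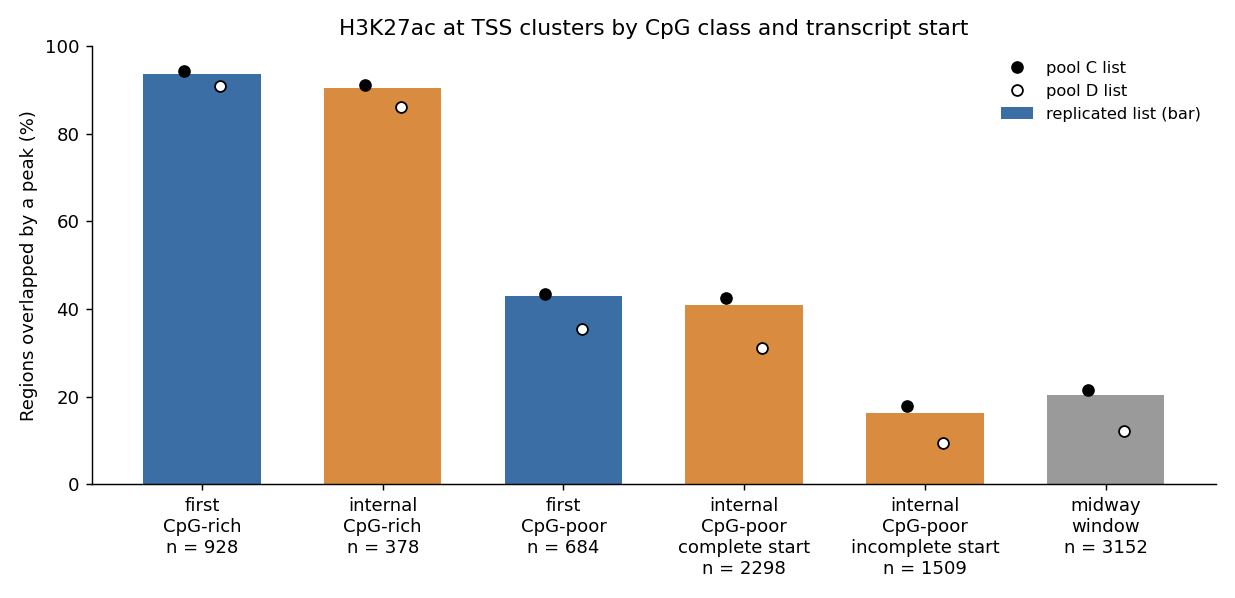
Share of regions overlapped by an H3K27ac peak (y axis, percent) for first and internal TSS clusters by CpG class, with CpG-poor internal clusters split by whether any transcript has a complete start, and for windows midway between clusters. Bars are the replicated list and points the pool lists. The bars of both CpG-rich classes exceed 90%, while the pool D point of CpG-rich internal clusters is at 86.0%. The bars of CpG-poor first clusters stand at 43.0%, CpG-poor internal clusters with a complete start at 40.9% and those with incomplete starts at 16.3%.

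Distance from the first start did not order the shares. Internal clusters under 5 kb from the first TSS were marked in 44.8%, those at 5 to 20 kb in 33.3%, those at 20 to 100 kb in 34.6% and those at 100 kb or more in 40.7%. In 201 of the 223 genes marked at internal clusters only (90.1%) the first cluster was CpG-poor, as were 684 of the 1612 first clusters of all members. In 4 of the 223 the first cluster was start-incomplete, and in 168 (75.3%) it rested on a single transcript, beside 41.8% of all first clusters.

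Shares were higher in the neuronal lists than over all members. Of 385 genes in 8 lists of neuronal functions, 148 had 3 or more clusters. Their first cluster was marked at 129 (87.2%; pool C 86.5%, pool D 79.1%) and their internal clusters at 259 of 468 (55.3%; pool C 57.7%, pool D 45.7%), beside 36.5% of internal clusters over all members. At least 2 clusters were marked in 118 of the 148 genes (79.7%), beside 48.1% of all members. Among internal clusters with a complete start the neuronal share was 67.0%, beside 47.9%. CpG-rich clusters differed little: 93.3% of the first were marked, beside 93.5% over all members, and 92.1% of the internal, beside 90.5%. Among CpG-poor internal clusters with a complete start the neuronal share was 61.0%, beside 40.9%. Midway windows in the neuronal genes were overlapped in 25.2%, beside 20.5%. These genes were also long, with a median of 207.6 kb from the first to the last start, beside 50.1 kb. The lists and the members were chosen with results of these data known, so no test of the difference is given.

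Postsynaptic scaffold and spine genes had the highest internal share of the 8 lists, with 51 of 72 internal clusters marked in the replicated list (70.8%; pool C 70.8%, pool D 56.9%) and 20 of 21 genes with at least 2 marked clusters. RNA-binding and splicing genes followed with 25 of 38 (65.8%; pool C 65.8%), and were the higher of the 2 lists in pool D with 57.9%, then kinase, phosphatase and phosphodiesterase genes with 36 of 57, neurotrophin, growth factor and receptor genes with 12 of 22, and transcription factor and chromatin genes with 48 of 89. Adhesion genes had 30 of 62, channel and receptor genes 23 of 49, and presynaptic, vesicle and cytoskeletal genes 34 of 79. The mark between starts differed too. Midway windows were overlapped in 41.2% in RNA-binding, 30.2% in postsynaptic, 29.6% in transcription factor and 25.4% in presynaptic genes. The share was 22.2% in channel, 20.8% in kinase, 16.1% in adhesion and 10.5% in neurotrophin genes. Its part in the order of the lists was not tested. The lists also differed in their number of start-incomplete clusters. These were 18 of the 72 in postsynaptic genes and 24 of the 62 in adhesion genes. In presynaptic genes they were 35 of the 79, and in transcription factor genes 16 of the 89, of which 8 were marked. Over internal clusters with a complete start in the replicated list, postsynaptic genes had 44 of 54 marked (81.5%). RNA-binding genes had 23 of 30 (76.7%) and adhesion genes 27 of 38 (71.1%). Transcription factor genes were last in the replicated list with 40 of 73 (54.8%), and in pool C with 57.5%. They were not last in pool D, where their 40 of 73 lay above channel genes with 15 of 30 and presynaptic genes with 22 of 44. Glial genes, a list apart from these 8, had 13 of 21 internal clusters marked (61.9%), beside 55.3% in the 8 neuronal lists together. Of the glial internal clusters with a complete start 12 of 17 (70.6%) were marked, beside 67.0%. Midway windows in glial genes were overlapped in 5 of 13 (38.5%, 1 in pool D), beside 25.2%. In contrast, 7 genes of muscle, liver, epithelium and blood had 1 of 30 internal clusters marked (3 in pool C, 1 in pool D) and 2 of 7 first clusters. Of these 30 internal clusters 19 were start-incomplete and none was CpG-rich, and the 11 with a complete start had 0 marked in the replicated list and 1 in pool C. Ttn (titin) had 0 of 12 clusters marked by any list, and Neb (nebulin), which like titin builds the sarcomere of muscle, had 0 of 8, with 1 marked in pool C. Mybpc1 and the liver transcription factor gene Hnf4a also had none.

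**Figure D4:**
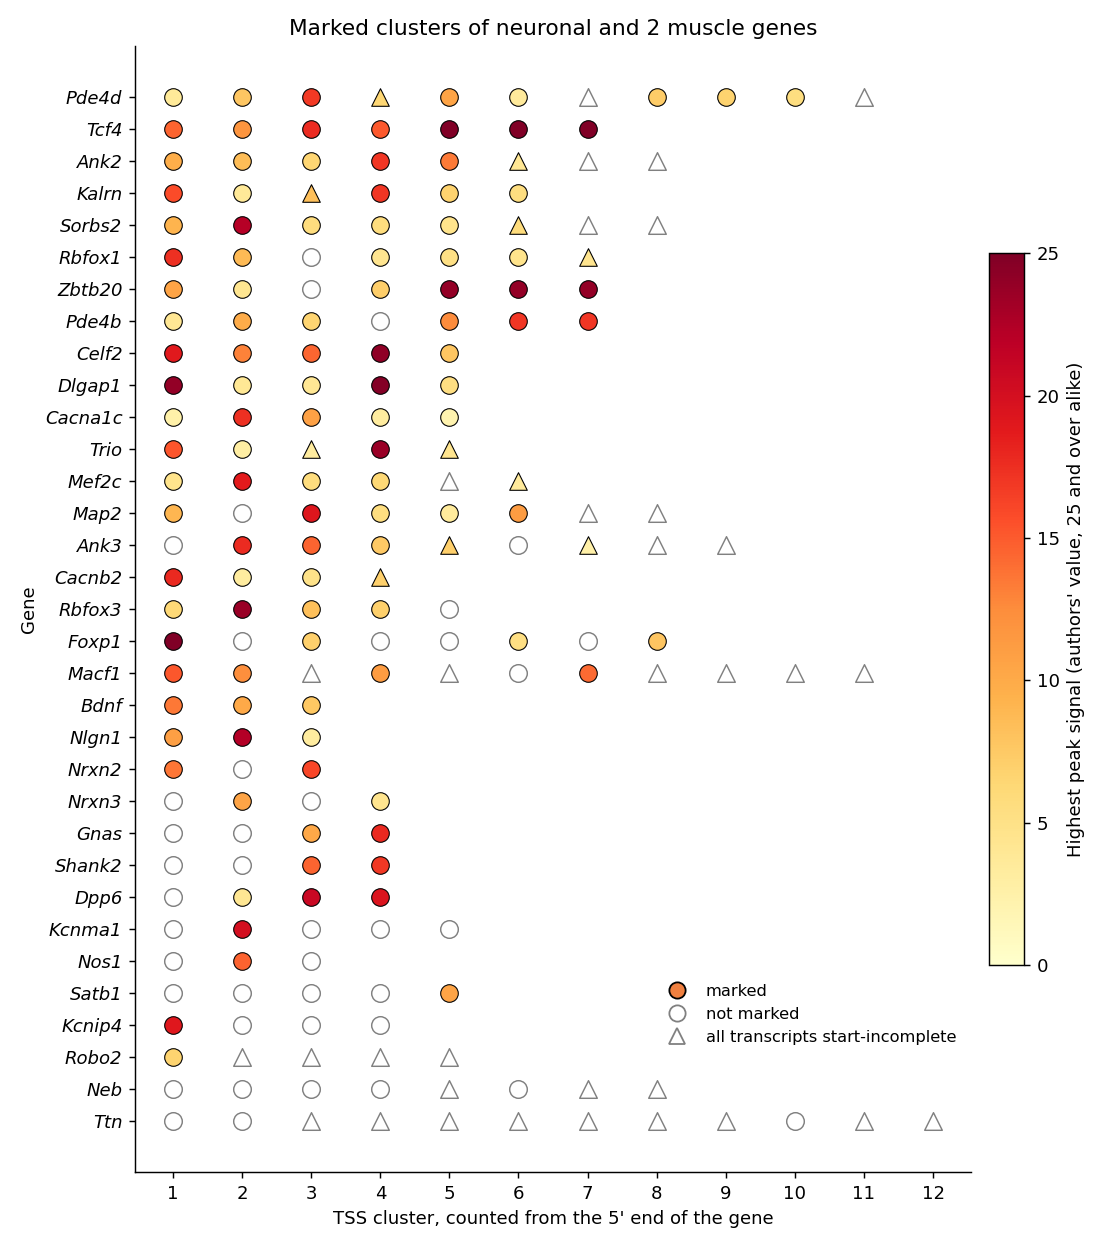
TSS clusters of genes for neuronal functions and of 2 muscle genes (y axis), counted from the 5' end of the gene (x axis), filled by the highest peak signal in the replicated list where marked and open where not. Triangles are clusters whose transcripts are all flagged as incomplete at the start: most open symbols of Macf1 and Robo2 are triangles, and all clusters of Neb and Ttn are open.

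Adhesion molecules come first among the single genes. Nrxn2 and Nrxn3 encode neurexins, presynaptic proteins that bind partners across the synaptic cleft. Nrxn2 had 2 of 3 clusters marked, with 13.6 at the first (pool C 15.8, pool D 9.55) and 16.1 at the last (pool C 20.0, pool D 11.6), 79.1 kb downstream. Its second cluster, CpG-rich at an observed over expected ratio of 0.90, had a peak of 3.90 in pool C alone. In Nrxn3 the first cluster had no peak in any list, and the second, 159 kb downstream, had 10.6 (pool C 11.8, pool D 7.72). Its most downstream cluster, at 1018 kb, had a weak peak of 4.40 in the replicated list and 4.92 in pool C and none in pool D. The last cluster of Nrxn2 was thus marked in both pools and that of Nrxn3 in pool C alone. Nlgn1, for the postsynaptic partner neuroligin, had its highest signal at the second cluster (22.3; pool C 25.2, pool D 15.8), beside 11.0 at the first (pool C 16.6, pool D 8.6), while the third cluster had 3.3 in the replicated list and no peak in either pool list. Robo2, an axon guidance receptor gene, was marked at the first of 5 clusters only (6.7; pool C 8.8, pool D 6.6), and its other clusters were all start-incomplete.

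**Figure D5:**
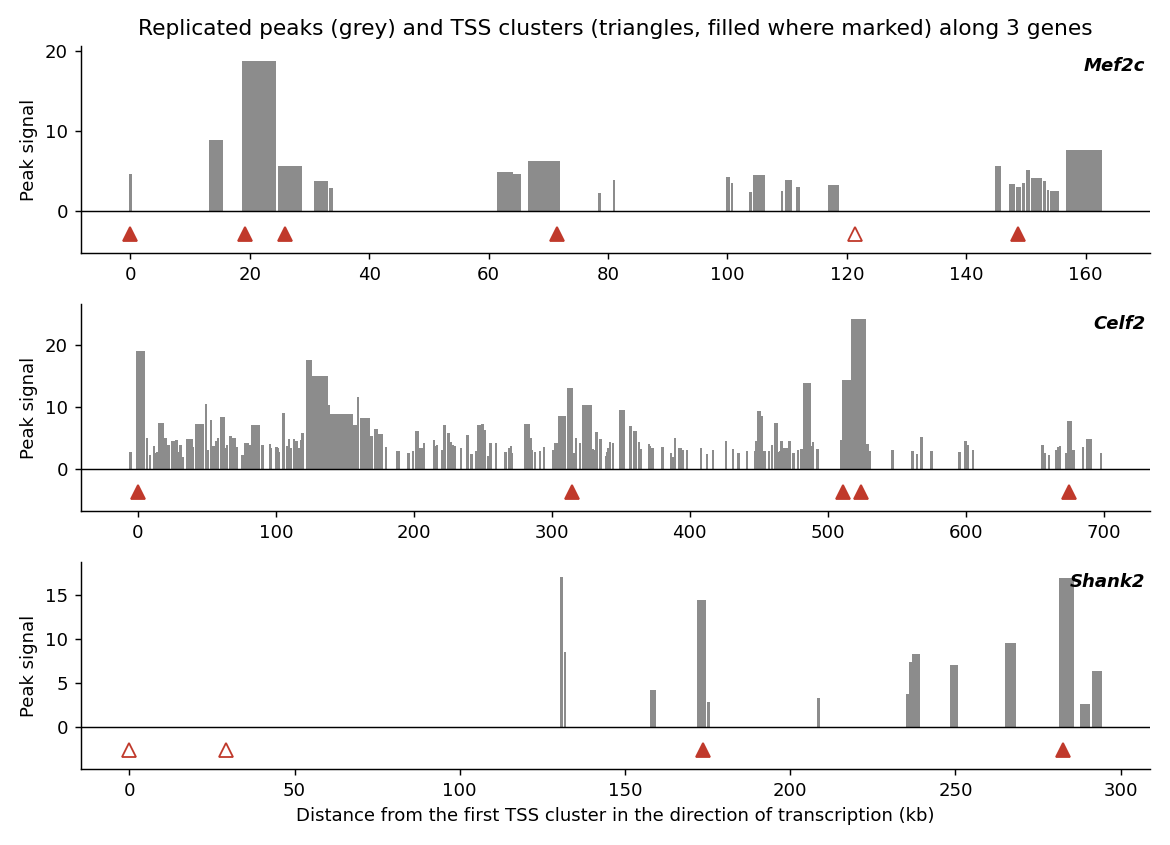
Replicated peaks (grey, width to scale, height the authors' signal on the y axis) and TSS clusters (triangles, filled where marked) along Mef2c, Celf2 and Shank2, by distance from the first cluster in the direction of transcription (x axis, kb). From the first to the last cluster these genes hold 23, 178 and 12 peaks, of which 7, 7 and 2 lie at clusters, and the first 2 clusters of Shank2 are unmarked.

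Bdnf, the gene of brain-derived neurotrophic factor, is known for a row of promoters that respond differently to neuronal activity, and all of its 3 clusters were marked in each list. The first had a signal of 13.5 (pool C 17.2, pool D 9.54), the second, at 16.5 kb, 10.2 (pool C 11.3, pool D 8.79), and the third, at 33.5 kb, 7.64 (pool C 8.62, pool D 6.48). The main TSS of the second cluster is that of exon IV, the best studied activity-dependent promoter, and the peak over this cluster covered chr2:109691974-109694921. The cluster merges the starts of 5 transcripts, and the summit of the peak lay 1270 bp from that main TSS. The order of the 3 signals was the same in both pools. The third cluster was overlapped by a peak of 5296 bp whose summit lay 2282 bp from the main TSS, outside the region. The tyrosine kinase receptor gene of this ligand, Ntrk2, has fewer than 3 clusters and is not among the members.

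Gnas showed the opposite arrangement, with the mark confined to downstream starts in each list. Its first cluster, at the start of the NESP55 transcripts, and its second, at that of the XL alpha s transcripts, had no peak in any list, although 5 and 6 coding transcripts begin there. The third cluster, at 43.4 kb, had 10.2 (pool C 12.1, pool D 6.92), and the fourth, at 45.7 kb and the start of the Gs alpha transcripts, had 17.8 (pool C 21.9, pool D 10.9). The unmarked first cluster had a CpG ratio of 0.63 and the marked cluster 4 one of 0.87, so both were CpG-rich. In the imprinted locus, as textbooks give it, the upstream promoters are active on a single parental allele, and the peak lists do not separate alleles.

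Postsynaptic genes with several marked starts included Dlgap1, which encodes a protein that binds PSD-95, with 5 of 5 clusters marked over 592 kb. Its first cluster had 23.9 (pool C 26.1, pool D 17.8) and the fourth 24.8 (pool C 27.7, pool D 16.2). The other 3 ranged from 3.93 to 5.41, and the second and the third had no pool D peak, so the gene had 2 strong starts in each pool. Kalrn, a guanine nucleotide exchange factor gene of dendritic spines known for isoforms from separate promoters, had 6 of 6 clusters marked in the replicated and pool C lists and 5 in pool D. Its highest signals were 15.7 at the first (pool C 18.7, pool D 11.5) and 17.0 at the fourth cluster (pool C 19.9, pool D 11.5). Ank2, for the membrane scaffold ankyrin-B, had 6 of 8 marked, with 9.72 at the first and 17.0 at the fourth cluster, 337 kb downstream (pool C 20.8, pool D 11.2). Its 2 unmarked clusters were start-incomplete. Sorbs2, for an adaptor of the actin cytoskeleton, had 6 of 8 marked and peaked at the second cluster (22.2; pool C 26.7, pool D 13.3), with 9.2 at the first (pool C 12.8, pool D 7.6).

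In Ank3, for ankyrin-G of the axon initial segment, the first cluster was CpG-rich (0.73) and unmarked in each list, while 5 of the 8 internal clusters were marked, led by the second with 17.7 (pool C 23.2, pool D 13.7), where 11 transcripts begin. Shank2, a scaffold gene of the postsynaptic density, had no peak at its first 2 clusters in any list. The third and the fourth cluster, at 174 and 283 kb, had 14.5 (pool C 15.5, pool D 12.9) and 17.0 (pool C 20.0, pool D 12.6). Nos1, which encodes neuronal nitric oxide synthase, was likewise marked at the second of 3 clusters alone, with 14.6 (pool C 14.6, pool D 10.7). In these 3 genes the unmarked first cluster had 1 transcript each. The upstream starts of Ank3, Shank2 and Nos1 were not detected as marked at this depth, which leaves unknown whether they are used in few cells or in none.

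Cyclic nucleotide phosphodiesterase genes are known for many promoters that give long and short isoforms, and Pde4d had the most marked starts of all members, 9 of 11 over 1281 kb (pool C 9, pool D 8). The third cluster, CpG-rich, had the highest signal, 16.9 (pool C 19.5, pool D 11.96), and the first had 3.70 (pool C 4.10, none in pool D). The 2 unmarked clusters were start-incomplete. Its relative Pde4b had 6 of 7 marked, with 4.0 at the first (pool C 4.3, none in pool D) and 17.0 in a peak shared by the sixth and the seventh (pool C 18.6, pool D 15.1). Pde4d and Pde4b thus had stronger peaks at downstream starts than at the first. Pde10a, a further phosphodiesterase gene, had 2 of 6 clusters marked and the higher signal at the first in the replicated list. It had 20.0 at the first (pool C 22.4, pool D 7.91) and 16.4 at the second (pool C 20.1, pool D 10.1). Trio, which encodes an exchange factor related to kalirin, had 5 of 5 marked in the replicated list, but 3 in pool C and 2 in pool D. The second and the third, at 3.0 and 3.2, were in neither pool list, while the fourth had 23.6 (pool C 27.7, pool D 17.9).

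Among channel genes, Cacna1c, for the pore subunit of the Cav1.2 calcium channel, had 5 of 5 clusters marked in the replicated list but only 3 in either pool. Its second cluster, where 12 transcripts begin, had 17.5 (pool C 21.1, pool D 11.1), and its first and last had 2.45 and 2.08 and no peak in either pool list. Counted by the pools, Cacna1c was marked at internal clusters only. Cacnb2, for a beta subunit of such channels, had 4 of 4 marked in each list, from 17.8 at the first (pool C 19.8, pool D 13.0) to 3.3 at the second. Dpp6, an auxiliary subunit gene of Kv4 potassium channels, was unmarked at the first of 4 clusters and had 20.8 (pool C 23.4, pool D 15.1) and 19.4 (pool C 22.7, pool D 13.3) at the third and the fourth. Kcnip4, for a protein that binds those same channels, had the reverse, with 19.1 at the first (pool C 26.5, pool D 17.3) and no peak at the other 3 clusters in any list. Kcnma1, for the large-conductance potassium channel, had 1 of 5 marked, the second, with 20 transcripts and 20.03 (pool C 25.2, pool D 12.7), while the annotated first start 10.6 kb upstream rested on 1 transcript.

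Of 12 genes for RNA-binding and splicing proteins, 10 had at least 2 marked clusters. Among those with 4 or more clusters, the 2 named for the fewest were Pum2 and Elavl2. Pum2, for a translational repressor, was marked at the CpG-rich first of 4 clusters only, with 21.9 (pool C 25.6, pool D 14.3). Elavl2, for a neuronal RNA-binding protein, was marked at 2 of 5 with no peak at the first in any list. Celf2 had 5 of 5 clusters marked in each list over 675 kb, with 18.9 at the first (pool C 23.1, pool D 11.6) and 24.2 at the fourth, which was CpG-rich (pool C 27.8, pool D 16.1). It also held 178 peaks between its first and last cluster, of which 7 lay at clusters, so most of its peaks were at no annotated coding start. Rbfox1 had 6 of 7 marked over 1468 kb, falling from 17.5 at the first (pool C 22.6, pool D 11.3) and 8.77 at the second (pool C 10.1, pool D 5.94) to between 4.37 and 5.09 at the other marked ones. Rbfox3, which encodes the neuronal marker NeuN, peaked at its second cluster (23.7; pool C 25.6, pool D 17.4), 2.0 kb from the first.

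Transcription factor genes included Tcf4, a basic helix-loop-helix factor gene, with 7 of 7 clusters marked in all 3 lists. Its signals ranged from 11.9 at the second cluster (pool C 14.1, pool D 5.79) to 24.96 at the last 3, which were overlapped by 1 and the same peak of the replicated list. Only 5 of its 7 clusters had a peak that touched no other cluster, and 4, without the second, had a summit inside the region. Mef2c, for a factor of neuronal survival and synapse number, had 5 of 6 marked. Its second cluster was the strongest with 18.7 (pool C 21.8, pool D 12.8), beside 4.62 at the first (pool C 4.78, none in pool D). Zbtb20, a hippocampal patterning factor gene, had 6 of 7 marked, 3 of them in a single peak of 23.9 (pool C 24.8, pool D 17.8) 596 kb and more from the first start. Foxp1 had its highest signal at the CpG-rich first cluster, 29.3 (pool C 27.2, pool D 23.1), and 3 of 7 internal clusters marked, from 5.3 to 7.8. No summit lay inside the region of that first cluster, and the nearest was 1677 bp from its main TSS. Satb1 was marked at the last of 5 clusters alone (10.6; pool C 11.9, pool D 7.6), although its first was also CpG-rich. Nr3c1, the glucocorticoid receptor gene, was unmarked at the first cluster in the replicated list, with 3.7 in pool C, and had 26.0 at the second (pool C 31.0, pool D 16.6).

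Cytoskeletal genes of neurites showed both marked downstream starts and unmarked annotated ones. Map2, for the dendritic microtubule protein, had 5 of 8 clusters marked (6 in pool C, 3 in pool D), with 9.0 at the first (pool C 11.7, pool D 8.2) and 19.2 at the third, 146 kb downstream (pool C 22.3, pool D 13.4). Macf1, for a linker of microtubules and actin, had 4 of 11 marked, at 15.2, 12.4, 11.3 and 14.2, each also in both pools. At its first cluster, with 15.2, no summit lay inside the region, and the nearest was 2752 bp from the main TSS. Of the 7 unmarked clusters of Macf1, 6 were start-incomplete. Of the glial members, Slc1a2, the astrocyte glutamate transporter gene, had 25.2 at its CpG-rich first cluster (pool C 29.9, pool D 16.6) and weaker peaks of 6.6 and 4.2 at 2 of 3 internal ones. The summits of these weaker peaks lay outside the regions. Tnr, a matrix protein gene of oligodendrocyte lineage cells, had 21.8 at the first (pool C 25.7, pool D 12.8) and 7.4 and 6.9 at the next 2. Pdgfra, of oligodendrocyte precursors, had no cluster marked in the replicated list.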

How the data were processed

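H3K27ac ChIP-seq peaks were used as deposited, in narrowPeak format on mm10, per the samples' descriptive text: a replicated list, one called on the pools combined, and one for each pool over its technical replicates. Not given in the sources used here: aligner and peak caller. The signal per peak was deposited by the authors on a scale that is not given, and it was compared within a list or set side by side. The −log10 q value, deposited by the authors in the column the format reserves for it, served 1 alternative, and each summit is counted from the start of its peak. Read totals are unknown, so depth and its precision are unknown, and 95% Wilson intervals cover only the counting of genes.

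TSS clusters were built from GENCODE M21 coding transcripts on the 19 autosomes, merged at 2 kb, widened by 1 kb, and marked at an overlap of 1 bp or more. The signal of a cluster is the highest among its peaks. CpG ratio (0.6 or more for CpG-rich) was taken in 1 kb around the TSS with most transcripts, from the GRCm38 genome sequence, which also gave the printed sequences. Differences of the F1 strain from that reference were not analysed. All 4 samples formed 1 group, no test was run, and the 2 pools gave the only error.

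The members and lists were chosen with earlier results of these data known. Named genes were, per list, up to 4 with the most marked clusters, and up to 2 with the fewest among genes of 4 or more clusters. Added to these were the 10 members with the most marked and the 10 with the most clusters. Up to 10 list genes with the highest internal signal and an unmarked first cluster were also named. So were Bdnf, Nrxn2, Nrxn3, Gnas, Mef2c and Tcf4. Homer1 and Camk2a were also on that rule but have fewer than 3 clusters. Some genes of this rule are not reported here. Pdgfra was named after its value was seen. Alternatives were other peak thresholds, lists, overlaps, widths, merging distances and transcript sets. Clustering and overlap were tested on simulated data. Versions were scipy 1.17.1, pandas 2.3.3, numpy 2.4.6 and matplotlib 3.10.9 on Python 3.11.15.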

Additional observations from a re-analysis of the deposited data

How the results depend on the processing

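First clusters were marked more often than internal ones under each of the 16 alternatives, by 16.0 to 39.5 percentage points (35.6 as reported), and 44 of the 64 alternative values of the 4 main shares moved by less than the SD between the pools. This SD rests on only 2 pools, whose own values are among the 64, and reached 8.07 points. The count of 44 is therefore a lenient measure. The shares that moved are given in the order all clusters, first clusters, internal clusters and genes with at least 2 marked clusters. With GENCODE basic transcripts (538 genes) they were 54.2%, 67.7%, 48.4% and 59.1%. With clusters of 2 or more transcripts (130 genes) they were 61.3%, 80.8%, 53.1% and 68.5%. With peaks above the median signal of 4.28 they were 39.3%, 67.8%, 28.3% and 37.3%. With each pool left out in turn the ranges were 39.2 to 47.6%, 67.4 to 72.6%, 28.3 to 38.0% and 37.8 to 49.2%, the lower value each time without pool C. With transcripts of complete start only (893 genes), chosen after seeing the data, they were 53.4%, 64.8%, 48.8% and 59.1%. These transcript sets hold fewer genes and clusters. No paired analysis of samples was possible because there is only 1 group. First and internal clusters of the same gene were compared by counts of genes alone, with no test. Of 1054 counts of marked clusters at named genes under the alternatives, 957 stayed within 1.5 times the reported count and 97 did not.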

Other observations

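Genes outside the neuronal lists also had many marked starts, and these were named by the same rule. Abr, for a regulator of small GTPases, had 6 of 7 clusters marked and none at the CpG-rich first one, with 26.3 at the fourth cluster (pool C 31.0, pool D 15.7). Nedd4l, a ubiquitin ligase gene that controls ion channels, had 7 of 9 marked, from 2.00 to 15.96. Myo18a, an unconventional myosin gene, had 6 of 7 marked, with its first 2 clusters in 1 peak of 25.7 (pool C 28.8, pool D 17.8). Tns1, which encodes the focal adhesion protein tensin-1, was marked at 3 of 9 clusters (5 in pool C, 3 in pool D), led by the seventh with 13.1 (pool C 15.6, pool D 9.02).

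Short motifs, neither of which contains the other, were counted on both strands in the 300 bp windows described with the printed sequences. The cAMP response element TGACGTCA was in 2.93% of marked first clusters (34 of 1162), 0.889% of unmarked first (4 of 450), 1.11% of marked internal (17 of 1528) and 0.376% of unmarked internal clusters (10 of 2657), beside 1.91% of the clusters of all autosomal coding genes. The letters TATAAA were in 5.16%, 12.7%, 9.55% and 17.6% of the same classes, beside 14.0% of all clusters. The median number of CG in the window was 22, 5, 6 and 4 in these classes, so both counts moved with base composition, and its part was not tested.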
